A study of Mus musculus with 4 samples.

Results

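The mitosis and spindle genes described here are 42 protein-coding genes taken by symbol from a fixed list, out of 32285 genes counted in each library, and every one of the 42 symbols was found. They comprise 6 genes for cyclins, CDK1 and its direct regulators, 4 for mitotic kinases, 4 for the spindle checkpoint, 2 for chromosomal passenger subunits, 6 for centromere and kinetochore proteins, 6 for kinesins, 8 for other spindle and midzone proteins, 3 for anaphase and its ubiquitin ligase, and 3 for chromosome structure. Whether these genes move with treatment bears on the question the study poses: what doxorubicin, a DNA-damaging anthracycline, does to cells of the young ovary and whether anti-Müllerian hormone (AMH) alters it.

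Mice were treated from postnatal day 25, and 1 ovary from each of 5 animals was collected 4 hours after the last dose, pooled by group and sequenced as 1 single-cell library. The control group received the vehicle (PBS/saline); the doxorubicin group 2 weekly doses of 3 mg/kg; the doxorubicin+AMH group the same doses together with recombinant human AMH at 0.75 mg/kg; and the AMH group AMH at 0.75 mg/kg without doxorubicin. Strain and genotype were not given in the sources used here. Since each group is a single library, differences between groups were not tested; every difference below compares libraries, and treatment cannot be told apart from library.

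Entry into mitosis is driven by CDK1 bound to cyclin B, kept inactive until CDC25 phosphatases act on it. Polo-like and Aurora kinases then organise the spindle, the checkpoint proteins hold the cell until every kinetochore is attached, and the anaphase-promoting complex (APC/C) with CDC20 and UBE2C marks securin and cyclin B for destruction so that the chromatids part. In the ovary, granulosa cells of growing follicles are the main dividing population, and most of these genes are transcribed only as cells pass through late S, G2 and M phase. Their promoters are known for a CHR element, bound by the MuvB complexes, and for CCAAT boxes, bound by NF-Y.

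The promoters below are shown as examples of members that hold both elements, Ckap2 among them because it is described on its own; not all members do. RefSeq entries on build GRCm38.p6 matched 35 of the 42 genes (38 promoters of 300 bases, 250 before and 50 after the start), and Kif20a, Aurkb, Ccna2, Smc4, Tpx2, Incenp and Cdc25c had none. Each line gives the 250 bases before the RefSeq start, 5′ to 3′ on the gene's strand, with capitals for TTTGAA (the CHR core) and CCAAT or the reverse complement of either. The windows are chr9:70421555-70421804 (minus strand) for Ccnb2, a B-type cyclin, chr4:118437344-118437593 (minus) for Cdc20, the APC/C activator, chr2:164769679-164769928 (plus) for Ube2c, its ubiquitin-conjugating enzyme, and chr8:22185820-22186069 (minus) for Ckap2, a spindle microtubule protein.
Ccnb2: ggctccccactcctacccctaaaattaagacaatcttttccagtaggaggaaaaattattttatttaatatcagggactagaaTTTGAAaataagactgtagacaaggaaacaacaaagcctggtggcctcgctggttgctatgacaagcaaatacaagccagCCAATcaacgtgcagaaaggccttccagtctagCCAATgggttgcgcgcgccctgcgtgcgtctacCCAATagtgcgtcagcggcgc
Cdc20: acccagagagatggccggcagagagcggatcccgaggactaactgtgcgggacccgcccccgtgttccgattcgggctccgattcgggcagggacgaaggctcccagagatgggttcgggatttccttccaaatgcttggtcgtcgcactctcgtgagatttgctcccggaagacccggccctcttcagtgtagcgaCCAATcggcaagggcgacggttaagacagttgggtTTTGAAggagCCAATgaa
Ube2c: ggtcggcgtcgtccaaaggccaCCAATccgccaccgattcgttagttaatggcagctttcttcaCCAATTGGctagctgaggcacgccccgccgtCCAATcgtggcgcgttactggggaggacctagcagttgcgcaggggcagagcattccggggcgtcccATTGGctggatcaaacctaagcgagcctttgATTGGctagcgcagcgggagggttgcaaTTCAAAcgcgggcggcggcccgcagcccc
Ckap2: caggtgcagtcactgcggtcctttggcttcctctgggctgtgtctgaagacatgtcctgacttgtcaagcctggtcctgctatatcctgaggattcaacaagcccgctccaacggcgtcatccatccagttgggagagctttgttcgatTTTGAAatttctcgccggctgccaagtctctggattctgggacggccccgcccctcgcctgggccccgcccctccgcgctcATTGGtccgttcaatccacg
In the printed windows Ccnb2 had 1 TTTGAA and 3 CCAAT, Cdc20 had 1 and 2, Ube2c had 1 and 6 (one pair overlaps), and Ckap2 had 1 and 1. A further TTTGAA of Ccnb2 begins 4 bases after the RefSeq start, beyond the printed bases.

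Over the 300-base windows and both strands, TTTGAA stood in 29 of the 38 member promoters (76.3%) and in 17.9% of all 32851 promoters in the table. CCAAT stood in 29 member promoters (76.3%) against 37.4% of all, and 25 (65.8%) held both against 6.95%. Neither stood in 5 member promoters (13.2%), those of Nuf2, Nusap1, Mad2l1, Birc5 and Pttg1, against 51.7% of all. Some RefSeq starts differ from the start of the gene annotation: the windows of Pttg1, Kif2c, Kif4 and one of those of Bub3 lie wholly within the annotated gene, and all but that of Pttg1 hold TTTGAA, while the window of Mad2l1 ends before its gene. The list of other mitosis genes, which are not members, had TTTGAA in 63.6% of 44 promoters, CCAAT in 70.5% and both in 47.7%. Genes of S phase, a list chosen for comparison, had CCAAT in 60.7% of 28 promoters and TTTGAA in 10.7%. A match is a description of letters and not of a bound site.

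The 4 libraries held 138647495 to 178279122 UMIs (counted RNA molecules) in 7141 to 9478 cells, and 6078 to 7998 cells per library were kept, with a median of 10706 to 15084.5 UMIs. Pairs of libraries shared 11 to 24 cell barcodes (0.12% to 0.281% of a library). Clusters were named from marker genes, with the 42 members and all genes that followed them kept out of the clustering, and 3.09% to 8.64% of the kept cells lay in 3 unnamed clusters. Levels are CPM, a gene's UMIs scaled to the total UMIs of the same cells, which are not scaled to gene length because only 3′ ends were counted. Sets of 4 levels or shares follow the library order control, doxorubicin, doxorubicin+AMH, AMH. Ratios are on the log2 scale, with the library named first over the one named after the slash.

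A mitotic cell was taken as one with at least 5 UMIs of the 42 genes after its UMIs were thinned at random to 2000, which sets every cell to the same depth. The word stands for this limit only. Most of these genes are transcribed from late S phase on, so cells in S or G2 phase can be among them. In granulosa-like cells, the mitotic share was 18.6% (95% Clopper-Pearson interval 16.8 to 20.4), 17.2% (15.5 to 19.0), 27.4% (25.4 to 29.4) and 20.8% (19.2 to 22.5). The interval of the doxorubicin+AMH library lay above the other 3; control overlapped both doxorubicin and AMH, which did not meet each other. The order of those 3 turned with the limit: at 3 UMIs the shares were 26.9% (24.9 to 28.9), 30.1% (28.0 to 32.2), 38.0% (35.8 to 40.2) and 31.1% (29.2 to 33.0), so control was the lowest, doxorubicin overlapped AMH, and doxorubicin+AMH again lay above the rest. These intervals cover counting error only and say nothing of the spread between animals. The class held 1941, 1861, 1968 and 2383 cells, of which 23, 21, 40 and 52 under 2000 UMIs were left out, and without thinning 79.9%, 83.9%, 85.1% and 78.0% of cells reached 5 UMIs.

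**Figure D1:**
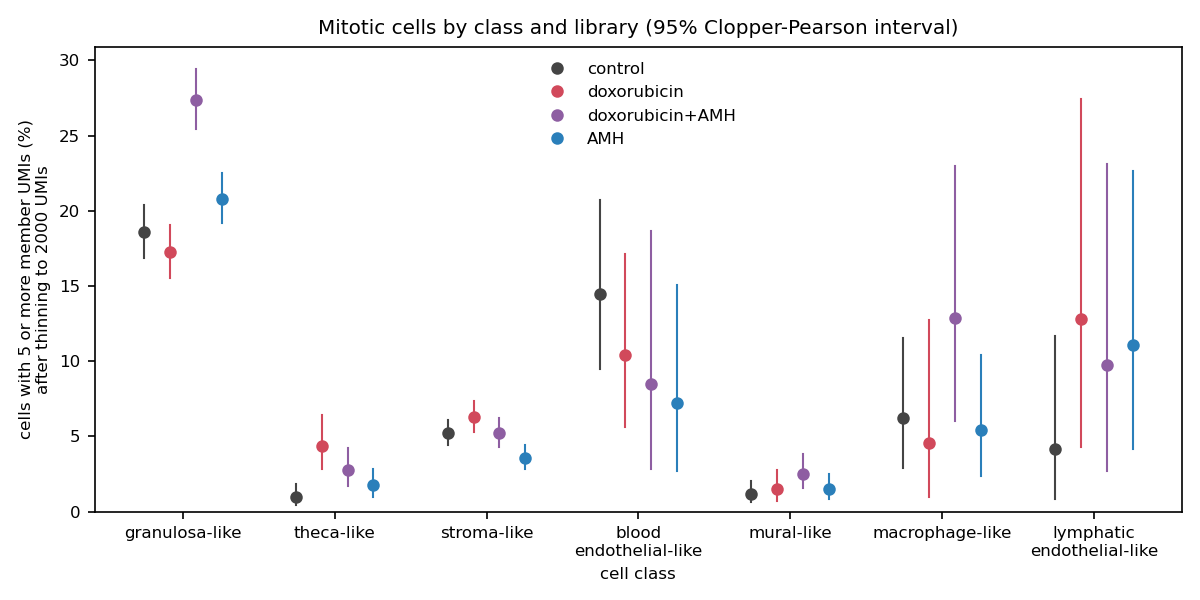
Percent of cells with at least 5 UMIs of the 42 genes after thinning to 2000 UMIs (y axis) for 7 cell classes (x axis) and 4 libraries (colours); points are shares and bars 95% Clopper-Pearson intervals. Granulosa-like cells of the doxorubicin+AMH library (27.4%) lie above the other 3 libraries (17.2% to 20.8%). The theca-like share of control (0.951%) lies below the other 3 (1.75% to 4.38%), but its interval takes in the lowest of them, that of AMH.

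As a background, erythroid-like cells, which should lack most of these RNAs, gave 0% in control, 0% in doxorubicin (3 cells would be 6.38% and 5.66%), 1.69% in doxorubicin+AMH and 6.45% in AMH (0.791 to 21.4), at median depths of 3928 to 6310 UMIs against 20571 to 24404 in granulosa-like cells. Between 11.7% and 16.8% of granulosa-like cells lay within 3 to 6 UMIs, near the limit. Mitotic granulosa-like cells carried a mean of 11.7 to 13.0 member UMIs of the 2000, and before thinning they were larger in RNA, with median UMIs of 31275 to 39909 against 19178.5 to 22328 in the others. They also held 4.06 to 4.69 UMIs of the 30 S phase genes against 1.67 to 1.91.

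Summed over the 42 genes, granulosa-like cells held 1947, 1873, 2690 and 1959 CPM. Doxorubicin / control was -0.06 (95% counting interval -0.07 to -0.04), and doxorubicin+AMH / AMH stood at 0.46. For AMH / control the value was 0.01, whereas doxorubicin+AMH / doxorubicin reached 0.52. The 2 doxorubicin contrasts share no library with each other, nor do the 2 AMH contrasts, but a doxorubicin contrast shares a library with each AMH contrast. Of the 42 genes, 41 had their highest level in the doxorubicin+AMH library, and the exception was Pttg1. The share of all genes with their highest level in that library was not counted.

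All 42 genes passed the filter on low values (a mean of at least 5 CPM and at least 50 UMIs in the class). Past a log2 ratio of 0.5 (with 1 CPM added to each level), 13 of 42 genes were higher in doxorubicin+AMH / AMH, where 0.885% of all 10623 genes were, and 24 passed on that side for doxorubicin+AMH / doxorubicin, where 1.77% were. With 5 CPM added these counts were 9 (0.32% of all genes) and 13 (1.17%), and past a log2 ratio of 1 both were 0 (0.0282% and 0.188%). At 0.5 with 1 CPM, none was lower in either, where 1.68% and 5.63% of all genes were. No member of doxorubicin / control or of AMH / control passed in either direction (background 0.471% higher and 0.49% lower, and 1.44% higher and 4.41% lower). The median member stood at 0.45 for doxorubicin+AMH against AMH and 0.54 against doxorubicin, beside -0.00 and -0.05 over all genes. Against control it was -0.08 for doxorubicin and -0.03 for AMH, beside -0.02 and -0.07.

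Among the cyclins and CDK1 regulators, all 6 were higher in doxorubicin+AMH than in AMH, by 0.39 to 0.53 on the log2 scale. Cks2, a small subunit that binds CDK1, had the highest level of them, at 142, 151, 211 and 160 CPM. Cdk1, the kinase itself, lay at 74.5, 75.2, 103 and 74.8 CPM in the same order, so 3 libraries were within 1 CPM of each other and only doxorubicin+AMH stood apart. Ccnb1, a cyclin B, was at 27.1, 27.0, 41.3 and 29.5 CPM, and Ccna2, a cyclin A, at 28.3, 29.3, 41.8 and 29.8 CPM.

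The 4 mitotic kinases were higher by 0.40 to 0.62. Plk1, polo-like kinase, had 17.5, 17.8, 26.3 and 16.7 CPM, and Aurkb, the kinase of the chromosomal passenger complex, had 20.9, 19.99, 31.1 and 22.1 CPM. Of the checkpoint genes, the kinase Bub1 had one of the larger ratios, 0.66, with 26.9, 25.2, 38.7 and 24.1 CPM. Bub3, which also serves outside mitosis, had the lowest checkpoint ratio, 0.18, with 56.0, 60.6, 66.6 and 58.5 CPM. Birc5 (survivin), a chromosomal passenger subunit, had 72.0, 67.9, 108 and 70.8 CPM.

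The 6 centromere and kinetochore genes lay between 0.42 and 0.55, with Cenpf, a large kinetochore protein, at 101, 95.2, 139 and 102 CPM and Cenpe, the kinetochore motor, at 55.8, 49.4, 75.6 and 56.2 CPM. None of the 6 kinesins passed 0.5 in doxorubicin+AMH / AMH (0.32 to 0.44). Kif11, the motor that pushes the spindle poles apart, was at 44.0, 38.9, 56.1 and 42.5 CPM. The 6 kinesins had doxorubicin / control ratios of -0.26 to -0.02, short of the 0.5 limit, beside a median of -0.02 over all genes. The counting interval of Kif20a, -0.18 to 0.14, spanned both signs.

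Among the 8 spindle and midzone genes, Hmmr, a spindle assembly factor, had the largest ratio of all 42 in doxorubicin+AMH / AMH, 0.72, with 36.4, 33.8, 51.5 and 30.8 CPM. Prc1, which bundles midzone microtubules, had 94.1, 89.9, 130 and 90.4 CPM. Ube2c, at 131, 144, 233 and 160 CPM, was higher in doxorubicin than control by 0.13 and in AMH than control by 0.28. It was 1 of 8 members above 0 in all 4 contrasts, with Cdk1, Ccna2, Cks2, Bub3, Cenpa, Ckap2 and Cdc20. Ckap2 was at 20.7, 23.2, 30.6 and 24.2 CPM, and Cdc20 at 32.0, 34.5, 47.6 and 32.2 CPM. Mki67, the proliferation marker that coats mitotic chromosomes, was at 102, 88.3, 124 and 84.8 CPM, and the condensin subunit Smc4, the member with the most UMIs, at 202, 184, 253 and 199 CPM.

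**Figure D2:**
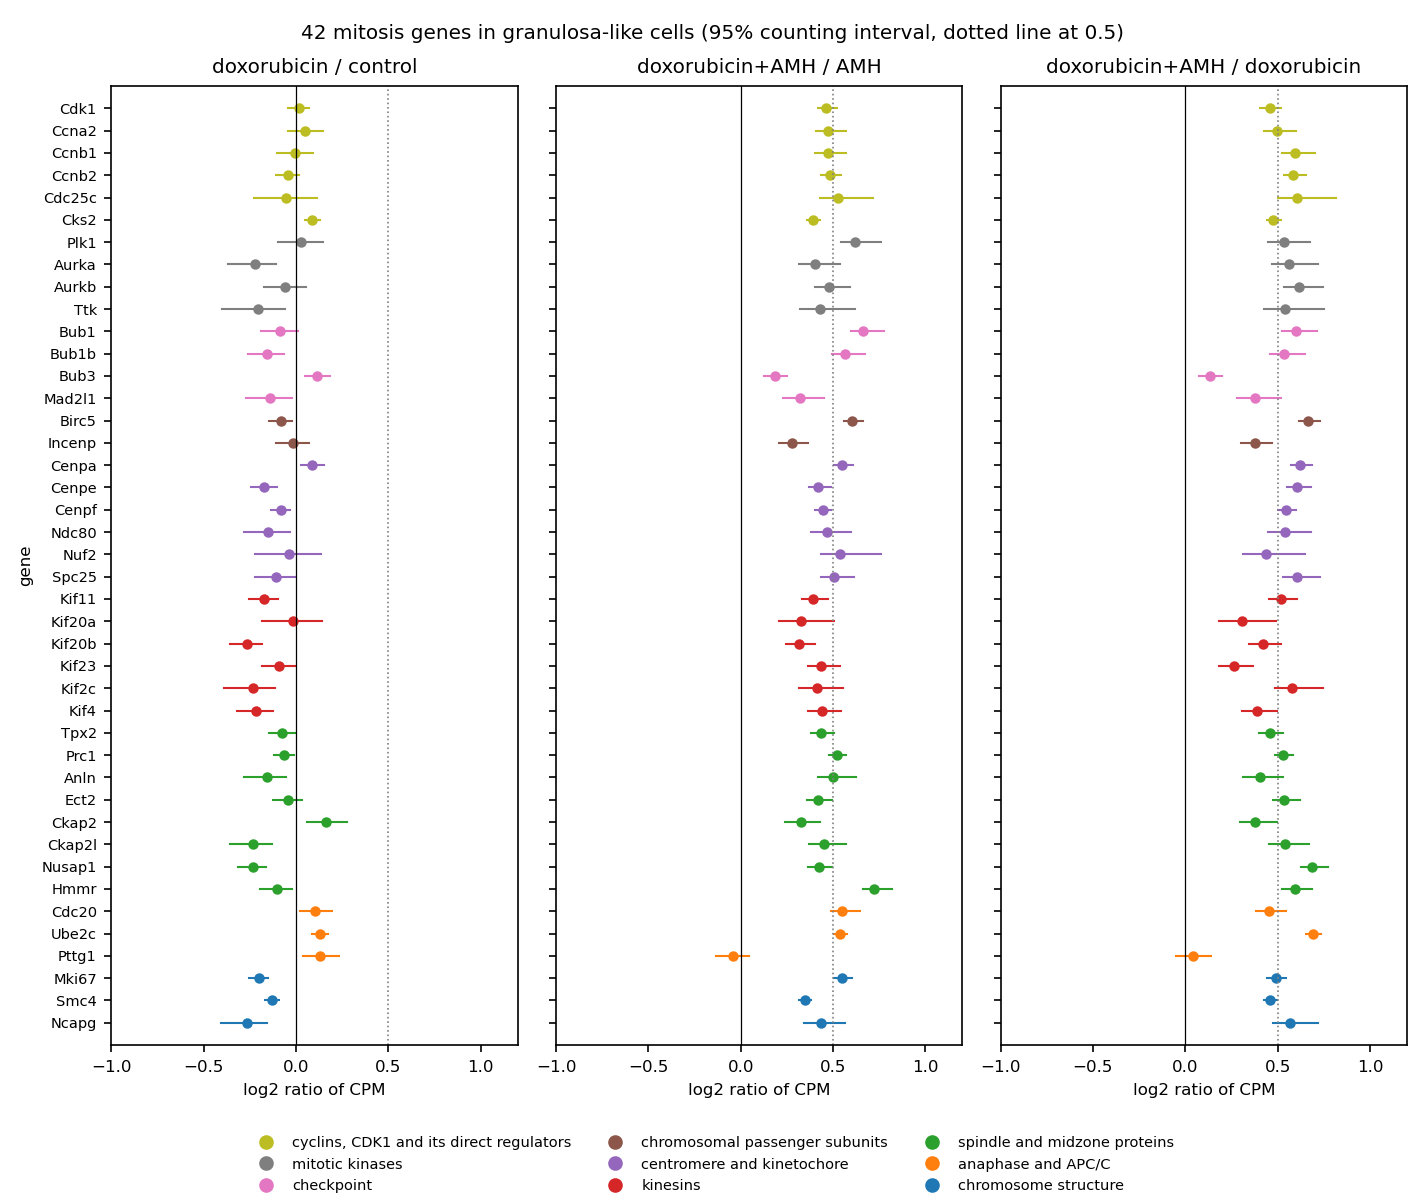
Log2 ratio of CPM (x axis, 1 CPM added) for the 42 genes (y axis, coloured by role) in granulosa-like cells in 3 contrasts; bars are 95% counting intervals without the added CPM and the dotted line marks 0.5. In doxorubicin / control the genes lie between -0.27 and 0.16, and in the other 2 contrasts 41 and 42 of 42 lie above 0, with Pttg1 at -0.04 and 0.04.

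The pattern was not equal across the granulosa-like clusters, which are called here by their leading gene. In the cluster led by Slc38a5, 27.1%, 23.3%, 31.0% and 26.9% of cells were mitotic. In the Inhba cluster the shares were 27.8%, 26.3%, 32.7% and 31.0%, and in the Shroom3 cluster 6.33%, 4.63%, 7.71% and 4.1%. In the Cdh12 cluster they were 19.2%, 21.0%, 33.8% (27.8 to 40.1) and 18.7%. The doxorubicin+AMH library was the highest in each of these 4 clusters, and in the Cdh12 cluster alone its interval met none of the other 3.

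The summed genes had a log2 ratio for doxorubicin+AMH / AMH of 0.20 in the Slc38a5 cluster, 0.24 in the Inhba cluster, 0.58 in the Shroom3 cluster and 0.57 in the Cdh12 cluster. Members past 0.5 numbered 0 of 42 in the Slc38a5 cluster (background 0.452%), 1 of 42 in the Inhba cluster (1.16%), 27 of 38 in the Shroom3 cluster (1.12%) and 29 of 42 in the Cdh12 cluster (2.54%). The cluster mix also differed, with the Slc38a5 and Inhba clusters making up 32.8%, 27.3%, 43.6% and 38.1% (Slc38a5) and 11.8%, 13.6%, 25.3% and 22.8% (Inhba) of granulosa-like cells. Giving the 4 clusters equal weight, the mitotic share was 20.1%, 18.8%, 26.3% and 20.2%.

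Granulosa markers also marked 2 clusters of low UMI count that were left unnamed by rule, the first led by Unc5c and the second by Ube2c and Birc5, members that were kept out of the clustering. Mitotic shares in the latter were 46.6%, 31.9%, 52.3% and 34.5% of cells, though 107 of its 179 doxorubicin cells fell under 2000 UMIs. With both counted as granulosa the shares were 19.3%, 17.5%, 27.6% and 20.2%, within the intervals above. The 2 other granulosa-like clusters, led by B230209E15Rik and Amh, were almost all from the doxorubicin library (171 and 80 cells), where 14.04% and 11.3% of cells were mitotic.

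Other genes of the cell cycle gave a scale for these ratios. Of 47 other mitosis genes, 46 passed the filter and 14 were higher past 0.5 in doxorubicin+AMH / AMH (0.885% of all genes), with a median of 0.43, the most abundant being Hmgb2 and Top2a. None of 30 S phase genes was past 0.5, and their median was 0.30 (Dut and Pcna the most abundant). The 17 genes of the DREAM and FOXM1 regulators had 1 past 0.5 and a median of 0.07 (Tfdp2, Rbbp4), the 7 G1 cyclins and CDKs that passed the filter 0 and 0.04 (Ccnd2, Cdk4), and the 17 APC/C genes 0 and 0.08 (Ube2s, Anapc13). Of 20 p53 target genes (Btg2 and Bax the most abundant), 15 passed the filter and 7 were higher past 0.5 in doxorubicin / control (0.471% of all genes), with a median of 0.40, and 2 in doxorubicin+AMH / AMH (0.885%), with a median of 0.10.

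How tightly each gene marked the mitotic cells was measured in granulosa-like cells with the gene itself left out of the definition. Hmmr led, with 90.4% of its thinned UMIs in mitotic cells, followed by Ccnb1 (86.4%), Ccna2 (85.6%), and Ckap2l, a spindle protein related to Ckap2 (85.2%). Smc4 (56.6%) and Cks2 (56.4%) were found about as much outside as inside, Bub3 had 39.2% inside, and Pttg1, which encodes securin, was the lowest at 18.4%. A UMI of Pttg1 was seen in 5.15% of mitotic and 5.94% of other cells, with no more of it in mitotic cells. Its level was 26.4, 29.0, 29.8 and 30.7 CPM, and its ratios ran from -0.04 to 0.21.

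**Figure D3:**
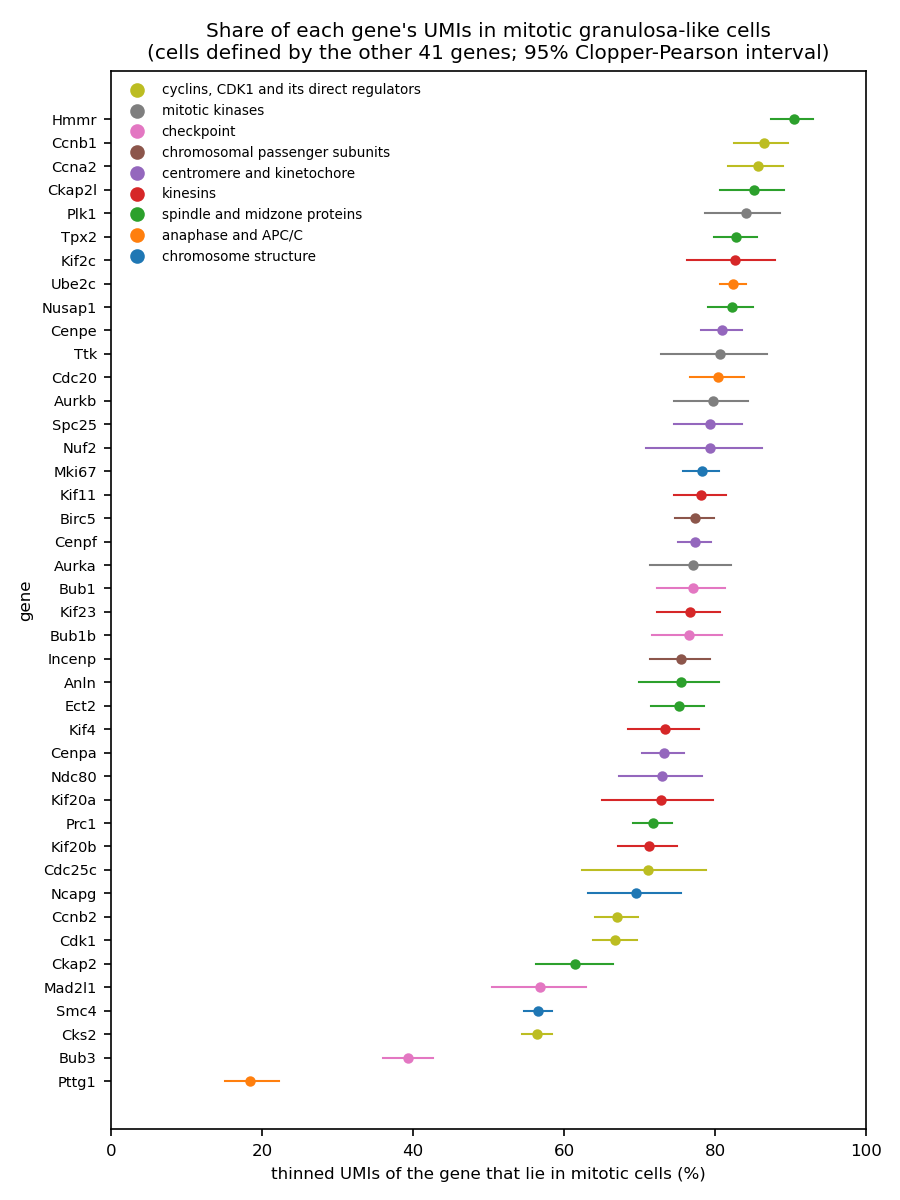
Percent of each gene's thinned UMIs that lie in mitotic granulosa-like cells (x axis) for the 42 genes (y axis, coloured by role), with cells called mitotic from the other 41 genes; bars are 95% Clopper-Pearson intervals. Hmmr lies at 90.4% and Pttg1 at 18.4%.

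In theca-like cells the control library was the low one. Mitotic cells made up 0.951% (8 cells), 4.38% (25 cells), 2.77% (21 cells) and 1.75% (16 cells), so the intervals of control (0.412 to 1.87) and doxorubicin (2.85 to 6.4) did not meet. The control interval took in the AMH share of 1.75%. The 42 genes summed to 342, 739, 702 and 577 CPM. Doxorubicin / control came to 1.11 and AMH / control to 0.75, against 0.28 for doxorubicin+AMH / AMH. Doxorubicin+AMH / doxorubicin was -0.07. With doublets left in, doxorubicin / control was 0.66 and AMH / control 0.39, and with each cell weighted equally doxorubicin+AMH / AMH was 0.16 and doxorubicin+AMH / doxorubicin -0.38. Thinning left out 9, 37, 5 and 10 cells, and unthinned shares ran from 51.3% in AMH to 70.2% in doxorubicin.

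Of the 42 genes, 32 passed the filter in theca-like cells and 10 did not. Past 0.5, 28 were higher in doxorubicin / control (1.65% of all genes) and 0 lower (0.992%). In doxorubicin+AMH / AMH 8 were higher (1.46%) and 0 lower (1.29%). In AMH / control 27 were higher (10.9%) and 1 lower (11.1%). Of doxorubicin+AMH / doxorubicin none was higher (9.23%) and 4 were lower (11.3%): Mad2l1, Kif2c, Ect2 and Ckap2. The median member was 1.52 for doxorubicin / control, 0.31 for doxorubicin+AMH / AMH, 1.06 and -0.05 for the AMH contrasts, where all genes had -0.00, -0.00, -0.05 and -0.04. Ube2c had the largest ratio of doxorubicin / control, 2.42, with 7.33, 43.6, 44.5 and 27.6 CPM. Cenpf stood at 5.8, 26.4, 31.1 and 17.2 CPM, and Cenpa, the histone of centromeres, at 7.6, 22.6, 30.3 and 17.7 CPM. Mki67 stood at 6.22, 23.3, 27.6 and 19.97 CPM. For these genes every treated library was above control, and doxorubicin and doxorubicin+AMH were the 2 highest.

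In the other role groups the control library was again the lowest for most leading members. Cks2 was at 27.6, 53.5, 47.2 and 46.1 CPM, and Birc5 at 5.41, 22.1, 25.4 and 16.9 CPM. Prc1 was at 9.94, 32.9, 29.9 and 23.8 CPM. Aurkb (2.3, 7.66, 7.65 and 5.77 CPM), Kif11 (8.37, 14.6, 14.2 and 10.4 CPM), Ccna2 (2.38, 9.09, 8.53 and 7.58 CPM), Ccnb2 (7.87, 16.0, 20.9 and 12.9 CPM) and Kif20b, a kinesin of late mitosis (6.03, 12.01, 12.2 and 11.2 CPM), had the same order of control below the rest. Pttg1 (44.0, 47.6, 43.9 and 51.3 CPM), Smc4 (63.1, 72.3, 70.7 and 75.7 CPM) and Bub3 (40.2, 47.5, 43.3 and 37.2 CPM) had ratios between -0.22 and 0.26 in the 4 contrasts. Pttg1, Bub3 and Smc4 were, with Cks2, the 4 genes with the smallest share of UMIs in mitotic granulosa-like cells, but the doxorubicin / control ratio of Cks2 in theca-like cells was 0.93.

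Nearly all mitotic theca-like cells lay in 1 cluster, led by Sct, which held 8 of 8, 20 of 25, 21 of 21 and 15 of 16 of them. In it 5.19% (2.27 to 9.98), 15.04% (9.43 to 22.3), 14.5% (9.19 to 21.3) and 11.4% (6.5 to 18.05) of cells were mitotic, after 2, 31, 0 and 2 cells under 2000 UMIs were left out of 156, 164, 145 and 134. There the summed genes stood at 1.47 in doxorubicin / control and 0.21 in doxorubicin+AMH / AMH. The value for doxorubicin+AMH / doxorubicin was -0.26. In the steroid-producing cluster led by Cyp17a1, 0% of cells were mitotic in control (3 cells would be 0.464%) and 0.978% in doxorubicin, and in the Prss35 cluster 0% in doxorubicin+AMH (3 cells would be 0.535%) and 0.137% in AMH (1 cell). The erythroid-like background of the AMH library, 6.45% from 2 cells, lies above the theca-like share of 1.75% there, and the Sct and Prss35 clusters of that library had 11.4% and 0.137%. Most theca-like cells were in the Cyp17a1 cluster in control and doxorubicin (651 and 412 cells) and in the Prss35 cluster in doxorubicin+AMH and AMH (566 and 738 cells), so the class as a whole mixes different clusters.

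Granulosa markers in the mitotic theca-like cells summed to 0.375 to 0.75 UMIs per thinned cell, against 13.0 to 16.97 in mitotic granulosa-like cells. Their own theca markers summed to 4.13 to 12.8 UMIs, and stroma markers to 3.84 to 7.63, where other theca-like cells had 1.81 to 3.7 UMIs of stroma markers. The part of stroma-type RNA in the result was not tested.

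One member ran another way in theca-like cells. Kif2c, a kinesin that takes microtubules apart, had 12.8, 14.5, 4.88 and 5.93 CPM, so the 2 libraries without AMH were the high ones. AMH / control was -0.996 for this gene, doxorubicin+AMH / doxorubicin -1.40, and no single cell held more than 9.01% of its UMIs in any library. The Cyp17a1 cluster, which had few mitotic cells, held 298 of its UMIs in control and 211 in doxorubicin (13.97 and 13.7 CPM), 9 in doxorubicin+AMH (9.07 CPM) and 17 in AMH (12.9 CPM). Within that cluster the AMH / control ratio was -0.11, with a counting interval of -0.91 to 0.59, and doxorubicin+AMH / doxorubicin was -0.54 (-1.74 to 0.36), and the cluster made up most of the class in the libraries without AMH only.

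In blood endothelial-like cells the control library was the high one, on far fewer cells. The class held 173, 129, 67 and 88 cells, of which 24 (14.5%, 9.49 to 20.7), 13 (10.4%, 5.66 to 17.1), 5 (8.47%, 2.81 to 18.7) and 6 (7.23%, 2.7 to 15.1) were mitotic, with intervals that all overlapped. The 42 genes summed to 2355, 1677, 1713 and 1113 CPM. AMH / control was -1.08 and doxorubicin / control -0.49, while doxorubicin+AMH / AMH was 0.62 and doxorubicin+AMH / doxorubicin 0.03.

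By gene, 22 of 42 were past 0.5 on the lower side in doxorubicin / control (5.56% of all genes), 27 on the higher side in doxorubicin+AMH / AMH (11.7%) and 40 on the lower side in AMH / control (12.8%). None lay on the opposite side in these contrasts (7.63%, 7.85% and 9.33% of all genes), and doxorubicin+AMH / doxorubicin had 3 higher (8.65%) and 4 lower (9.24%). The median member was -0.51 for doxorubicin, 0.60 for doxorubicin with AMH on both sides, -1.06 for AMH and 0.05 for AMH with doxorubicin on both sides (all genes -0.02, 0.05, -0.08 and -0.01). Mki67 had 169, 80.9, 103 and 58.6 CPM. Cenpf had 133, 94.6, 118 and 52.6 CPM, Prc1 130, 96.5, 87.3 and 46.3 CPM, and Smc4 184, 140, 118 and 118 CPM. Ube2c had 133, 108, 93.3 and 63.1 CPM, Birc5 105, 76.2, 54.8 and 42.2 CPM, and Cks2 106, 71.1, 74.8 and 57.5 CPM. In each of these 7 genes control was the highest library and AMH the lowest. For 38 of the 42 genes control was the highest library, and AMH was the highest for 0, but the same shares over all genes were not counted. Of the less abundant genes, Kif23, a midzone kinesin, had 66.1, 39.2, 47.4 and 31.3 CPM, Plk1 25.7, 15.9, 21.5 and 14.2 CPM, Ckap2 39.8, 34.1, 33.31 and 23.5 CPM, Aurkb 23.8, 20.4, 11.1 and 9.7 CPM, Bub1 15.4, 14.02, 13.3 and 5.97 CPM, Nuf2, a kinetochore subunit, 14.9, 10.8, 5.18 and 6.72 CPM, and Kif20a, a cytokinesis kinesin, 14.4, 10.8, 5.18 and 5.22 CPM. Pttg1 (51.5, 56.1, 48.9 and 49.6 CPM) and Bub3 (68.6, 69.8, 58.5 and 48.9 CPM) were highest in doxorubicin instead.

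Single cells weighed heavily here. The richest cell of the doxorubicin+AMH library held 41.7% of all member UMIs of the class, and 1 cell there held 80 of the 102 UMIs of Ect2, an activator of the contractile ring, whose level of 75.5 CPM in that library compares with 41.7, 19.4 and 17.2 CPM in control, doxorubicin and AMH. Without the richest cell of each library the doxorubicin+AMH / AMH ratio of the summed genes was 0.19, while AMH / control was -1.18. With each cell weighted equally, doxorubicin / control turned to 0.32 and AMH / control was -0.47, and with cells gated by markers instead of clusters doxorubicin / control was 0.17 and doxorubicin+AMH / AMH 0.0047. AMH / control kept its sign in all 8 alternatives (-1.18 to -0.47), as did doxorubicin+AMH / AMH (0.0047 to 0.62), while doxorubicin / control changed sign in 2 and doxorubicin+AMH / doxorubicin in 4.

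In stroma-like cells the mitotic shares were 5.21%, 6.28%, 5.22% and 3.54%, with the AMH interval (2.81 to 4.41) below those of control and doxorubicin. Most of them (127 of 157, 114 of 135, 82 of 111 and 59 of 77) lay in a cluster led by Enpep, where 17.99%, 19.3%, 16.4% and 14.9% of cells were mitotic. Of 41 genes past the filter, 7 were lower in AMH / control by 0.5 or more (2.1% of all genes): Ndc80, Kif11, Kif2c, Kif4, Ckap2, Hmmr and Mki67. None was higher (0.951%). In doxorubicin+AMH / AMH Ckap2 and Ube2c were higher (0.628%) and none lower (1.27%), and in doxorubicin+AMH / doxorubicin Ckap2 was lower (2.21%) and none higher (0.871%). The summed genes gave -0.32 in AMH / control and 0.30 in doxorubicin+AMH / AMH.

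Mural smooth muscle-like cells held few mitotic cells, with 1.19%, 1.48%, 2.53% and 1.49% mitotic. Of 31 genes that passed, 28 were highest in doxorubicin+AMH, where the share over all genes was not counted. Past 0.5, 16 were higher in doxorubicin+AMH / AMH (1.71% of all genes) and none lower (3.13%), with a summed ratio of 0.45. In doxorubicin+AMH / AMH the summed ratio was 0.41 in the cluster led by Acta2 and 0.74 in the cluster led by Rgs5. The clusters parted in the other contrasts: AMH / control was 0.50 in the Acta2 and -0.01 in the Rgs5 cluster, and doxorubicin / control was -0.02 and 0.67. With cells gated by markers, AMH / control over the class turned to -0.39, doxorubicin+AMH / doxorubicin turned from 0.47 to -0.32, and doxorubicin+AMH / AMH was 1.05. Of 191, 95, 97 and 191 macrophage-like cells, 47, 29, 27 and 44 under 2000 UMIs were left out, and 6.25%, 4.55%, 12.9% and 5.44% of the rest were mitotic (9, 3, 9 and 8 cells); their intervals overlapped.

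**Figure D4:**
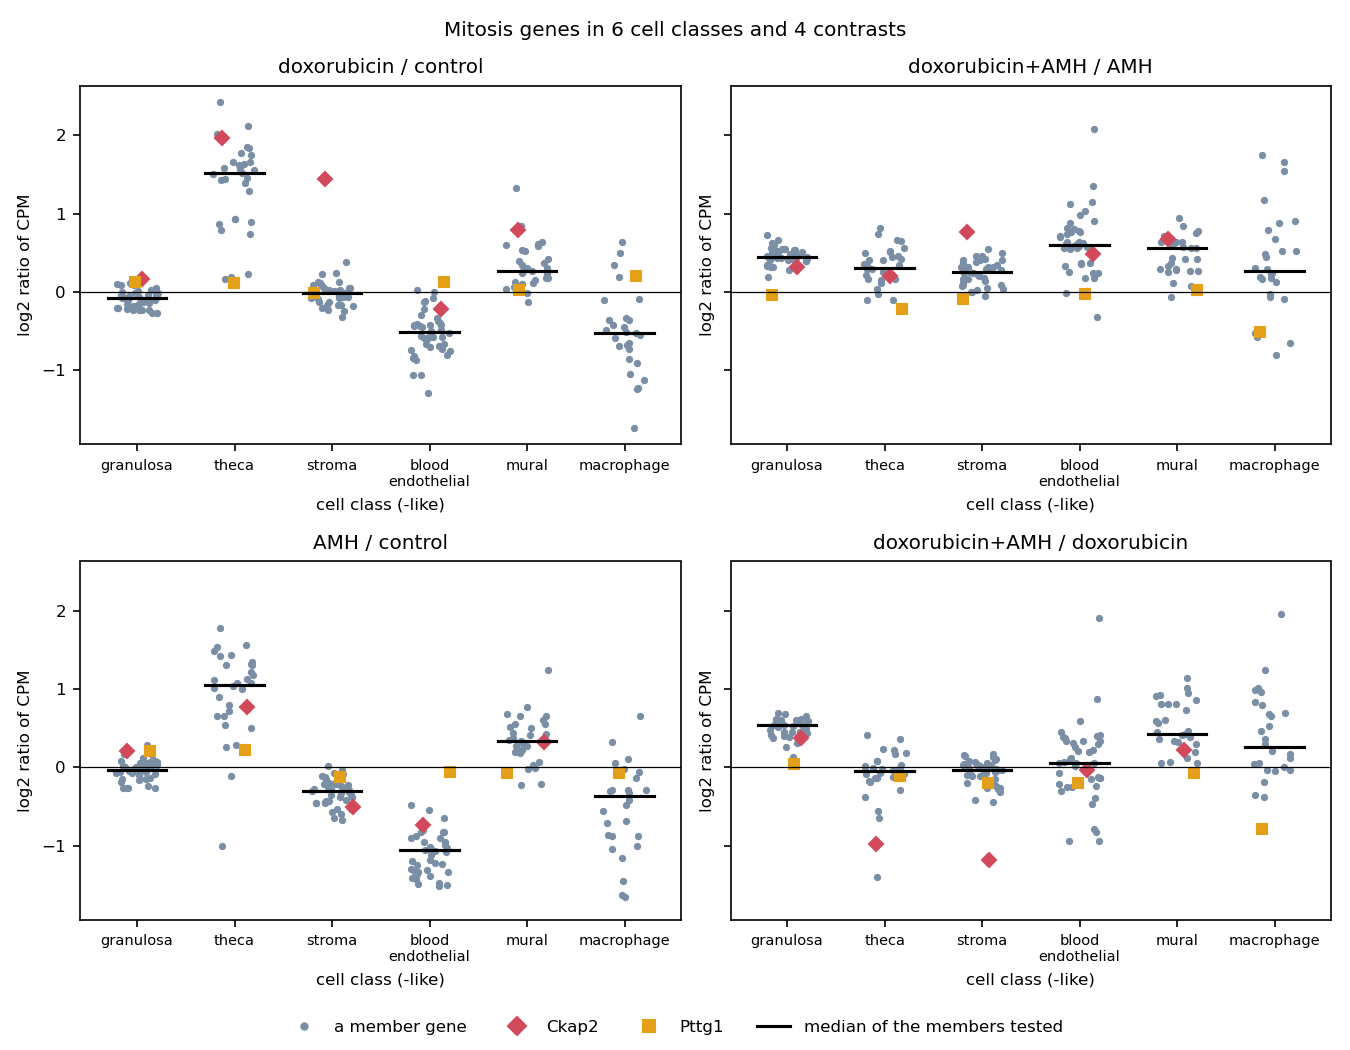
Log2 ratio of CPM (y axis) for each gene past the filter (points) in 6 cell classes (x axis) and 4 contrasts (panels); black bars are medians, red diamonds Ckap2 and yellow squares Pttg1. Medians for doxorubicin / control run from -0.52 in macrophage-like to 1.52 in theca-like cells, and Ckap2 in stroma-like cells, at 1.45, stands apart from the other members.

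Ckap2, looked at further after its values were seen, had a pattern of its own in doxorubicin. In stroma-like cells its level was 21.4, 60.1, 25.9 and 14.8 CPM, and it was the only one of 41 genes higher past 0.5 in doxorubicin / control (0.799% of all genes), where none was lower (0.763%). Within the class the libraries parted most in a fibroblast-type cluster led by Clec3b, where Ckap2 had 6.57, 239, 4.6 and 1.28 CPM, from 25, 786, 8 and 4 UMIs. The other stroma-like cells held more of the class's 1836 Ckap2 UMIs in doxorubicin (1050), against 725 of 750 in control.

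In the same cluster Mki67 had 8.67, 0.304, 6.89 and 3.85 CPM, from only 33, 1, 12 and 12 UMIs, and the other 41 genes together had 313, 249, 311 and 271 CPM. Only 2 of its cells were mitotic in doxorubicin and 4 in control. Among non-mitotic cells of the cluster thinned to 2000 UMIs, Ckap2 was found in 0.33%, 26.9% (21.0 to 33.5), 0.654% and 0% of cells (unthinned 3.57%, 64.9%, 5.19% and 1.45%). Cdkn1a, the cell cycle inhibitor induced by p53, named here after its values were seen, was at 132, 1556, 263 and 159 CPM in that cluster.

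Ckap2 was highest in doxorubicin in other cells too, in some of them outside mitotic cells and in others mostly within them. Surface epithelial-like cells had 3.0, 91.8, 9.66 and 0.622 CPM of Ckap2, with Cdkn1a at 152, 1264, 290 and 82.7 CPM. A Des cluster had 7.43, 107, 11.3 and 5.91 CPM, with only 19 cells in doxorubicin, and lymphatic endothelial-like cells 10.9, 46.5, 13.2 and 15.9 CPM. In the Sct theca cluster Ckap2 was at 10.3, 61.9, 27.8 and 23.6 CPM and in the Enpep cluster at 38.6, 67.1, 45.5 and 28.6 CPM, both of them clusters with mitotic cells. Most other members were also highest in doxorubicin in the Sct cluster. Counted over non-mitotic cells alone, the doxorubicin level was 238 CPM in the Clec3b cluster, 107 CPM in the Des cluster and 88.0 CPM in surface epithelial-like cells. It was 13.9 CPM in lymphatic endothelial-like cells, 9.69 CPM in the Enpep cluster, 5.11 CPM in the Sct cluster and 4.31 CPM in the Rgs5 cluster. In macrophage-like cells, with Cdkn1a at 272, 853, 454 and 191 CPM, Ckap2 did not pass the filter on low values (14, 6, 3 and 10 UMIs), and its doxorubicin / control ratio of -0.13 had a counting interval of -1.81 to 1.33.

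**Figure D5:**
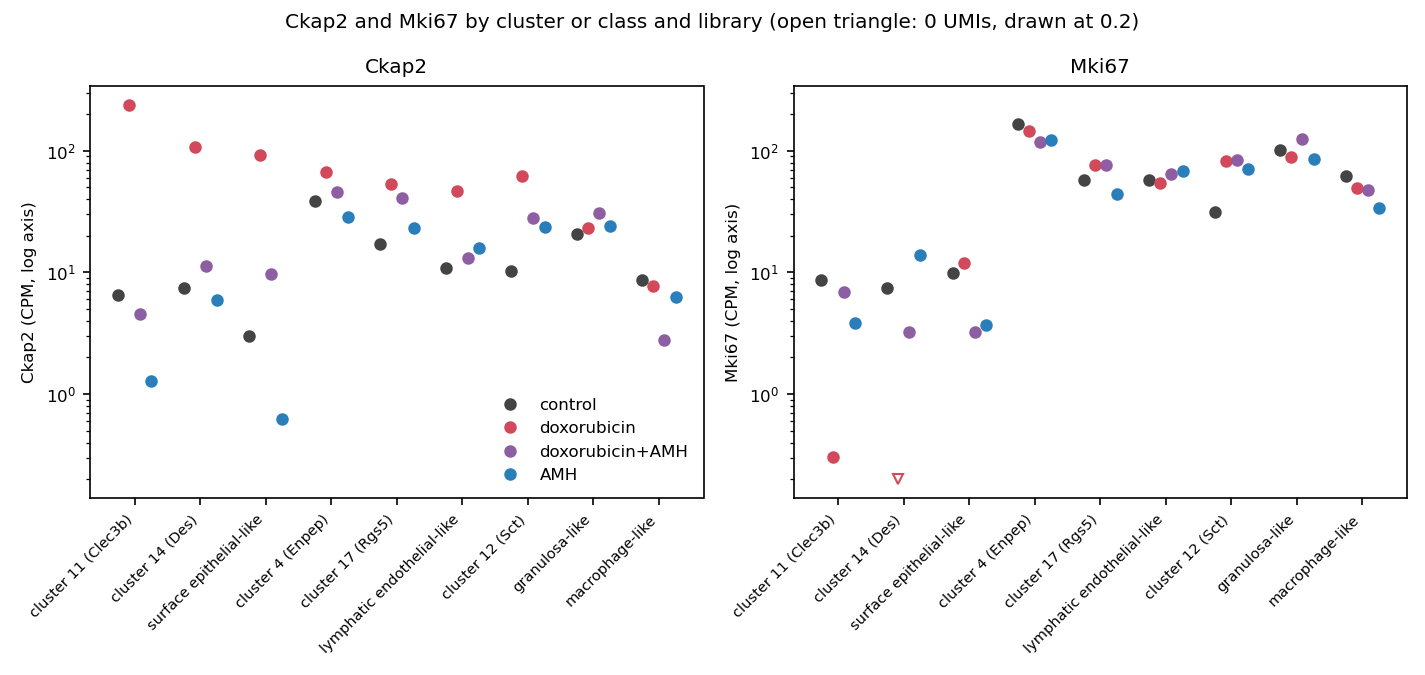
Level of Ckap2 (left) and Mki67 (right) in CPM on log axes for 9 clusters or classes (x axis) and 4 libraries (colours). Doxorubicin is the highest library for Ckap2 in the first 7 groups, from 239 CPM in the Clec3b cluster to 46.5 CPM in lymphatic endothelial-like cells, while Mki67 in the Clec3b cluster rests on 1 UMI in doxorubicin (0.304 CPM).

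Those 7 groups are ones where doxorubicin was the highest library for Ckap2, so its lower doxorubicin+AMH level there is no separate result. In the Rgs5 cluster, for example, the levels were 41.3 CPM in doxorubicin+AMH and 53.3 CPM in doxorubicin. Leaving the Clec3b cluster out, stroma-like cells had 23.2, 38.5, 27.4 and 16.9 CPM. Ckap2 (ENSMUSG00000037725) lies on the minus strand at chr8:22168160-22185819 in build GRCm38, and 1 of its 3 annotated transcripts ends in sequence that is alike in 37 other genes, so part of its count is uncertain. Of the other members, 14 also have a 3′ end alike in another gene, among them Ccnb1, Cks2 and Cenpf, 16 members are overlapped by a gene on the other strand, and 9, among them Smc4, Cks2 and Kif11, by a gene on the same strand.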

How the data were processed

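Single-cell libraries from 4 pools of mouse ovary were deposited as UMI counts per gene and cell barcode; per the file headers the matrices came from Cell Ranger 7.0.0, and the submitters' processing notes list mm10, R 4.2.0 and Seurat 4.1.0. The annotation behind the counts, and its treatment of introns, is not given in the sources used here. Barcodes under 1000 UMIs or over 20% mitochondrial UMIs were dropped, and the cells with the highest Scrublet scores (scanpy 1.11.5) were removed as doublets, 0.8% per 1000 cells, because the tool's own threshold called 0 or 1 cell per library. The 4 libraries were clustered together (2000 variable genes, 30 components, 20 neighbours, Leiden resolution 1) without the 42 members, the other cell cycle lists, histone genes and genes correlated with the summed members beyond 0.15. A cluster took a class name where at least 3 markers and 60% of a class's list were raised by a log2 of 1 over the median cluster and found in 10% of its cells, the class with the most markers among the cluster's top 10 genes being taken first. A cluster whose median UMI count was under 33% of its libraries' medians stayed unnamed if none of those markers was among its top 10 genes. These limits were set after the markers were seen, and so a difference from the study may come from rebuilt names. UMIs were summed per library and class, scaled to CPM, and compared as log2 ratios with 1 CPM added, over genes that averaged 5 CPM or more and held 50 UMIs or more, past 0.5 in either direction.

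Intervals are exact (95%, Clopper-Pearson for shares, conditional binomial for ratios); they cover counting error only, and UMIs of 1 cell are not independent. No test between groups was made, since each group is 1 library. All 42 members could be named, and values in every library are given for the most abundant member of each role and for the 3 highest and 3 lowest by the ratio closer to 0 in each pair of contrasts of equal sign; of each other list the 2 most abundant genes are named. The members and lists were chosen with earlier results of these data known. Likeness of 3′ ends was searched with BLAST+ 2.17.0 (at least 95% identity over 90 bases of the last 400). The steps were tested on simulated counts. Alternatives changed the mitochondrial and UMI limits, doublet removal, cell classes, scaling, cell weights, pseudocount, filter and thresholds.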

Additional observations from a re-analysis of the deposited data

Results flagged for a closer look

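Some ratios of the summed 42 genes had opposite signs with and without the other agent; each rests on 1 library per group, so the difference itself was not tested. In granulosa-like cells the log2 ratio for doxorubicin was -0.06 without AMH and 0.46 with it, a difference of 0.51. In theca-like cells the ratio for AMH was 0.75 without doxorubicin and -0.07 with it, a difference of -0.83. In blood endothelial-like cells the ratio for doxorubicin was -0.49 without AMH and 0.62 with it, a difference of 1.11, and the richest cell of the doxorubicin+AMH library held 41.7% of the member UMIs. There the opposite signs were lost in 2 alternatives: the pair was 0.17 and 0.0047 with cells gated by markers, and 0.32 and 0.26 with each cell weighted equally. In macrophage-like cells the ratio for doxorubicin was -0.35 without AMH and 0.26 with it, and the ratio for AMH was -0.37 without doxorubicin and 0.24 with it, both a difference of 0.61, on 3 to 9 mitotic cells per library. With cells gated by markers the macrophage ratio for doxorubicin without AMH was -0.078, and the ratio for AMH with doxorubicin turned to -0.063, so that the opposite signs for AMH were lost.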

How the results depend on the processing

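No paired analysis was possible because the labels give no replicate numbers and each group is 1 library. With 1 library per group, none was left out. Of the alternative values for the main results, 156 were scored as the same and 60 as moved. Ratios and shares were scored against their counting interval. Counts of members have no interval and were scored by nearness to the main count, and several main counts were 0. The intervals are narrow since they leave out the spread between animals. The alternatives that count low-UMI clusters as granulosa, leave out the doxorubicin-only clusters or leave out the richest cell were chosen after seeing the data. Where a value changed, the cause was not tested.

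In granulosa-like cells doxorubicin / control was -0.043 with a mitochondrial limit of 10%, -0.076 with the marker gate, -0.038 without the doxorubicin-only clusters and -0.015 with median-of-ratios scaling. Doxorubicin+AMH / AMH was 0.44, 0.47, 0.48 and 0.38 with the 10% limit, the gate, that scaling and equal cell weights. AMH / control was 0.024, -0.062, 0.12 and 0.10 in the same order and -0.0055 with the low-UMI clusters; the scaling moved the median of all genes by 0.10. Doxorubicin+AMH / doxorubicin was 0.50, 0.48, 0.61 and 0.54, 0.51 with doublets left in and 0.50 without the doxorubicin-only clusters. The mitotic share was 21.0% in control with the gate, and 26.9%, 30.1%, 38.0% and 31.1% in control, doxorubicin, doxorubicin+AMH and AMH with at least 3 member UMIs. Members past the limit in doxorubicin+AMH / doxorubicin numbered 13 with 5 CPM added (1.17% of all genes), and 0 in it (0.188%) and in doxorubicin+AMH / AMH (0.0282%) past a log2 ratio of 1.

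In theca-like cells, with doublets left in, the gate and equal weights, doxorubicin / control was 0.66, 0.85 and 1.05, doxorubicin+AMH / AMH 0.24, 0.23 and 0.16, AMH / control 0.39, 0.61 and 0.52, and doxorubicin+AMH / doxorubicin -0.028, -0.0015 and -0.38. With the 10% limit doxorubicin / control was 1.21, AMH / control 0.67 and doxorubicin+AMH / doxorubicin -0.27, or -0.036 with median-of-ratios scaling. In blood endothelial-like cells, with doublets left in, the gate, the richest cells left out and equal weights, doxorubicin / control was -0.41, 0.17, -0.59 and 0.32, doxorubicin+AMH / AMH 0.34, 0.0047, 0.19 and 0.26, AMH / control -0.84, -0.55, -1.18 and -0.47 (-0.999 with median-of-ratios scaling), and doxorubicin+AMH / doxorubicin -0.10, -0.71, -0.39 and -0.53. As single genes, only the most abundant member of each role, Ckap2, Pttg1, Kif2c and Ect2 were put through the alternatives, for ratios past 0.5. Those that changed direction in blood endothelial-like cells with the gate were Cenpf in doxorubicin+AMH / AMH (-0.063), Ect2 in doxorubicin+AMH / doxorubicin (-0.16) and Kif2c in doxorubicin / control (0.52).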
